A study of Mus musculus with 2 samples.

Results

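The R-spondin arm of the Wnt pathway was examined in mouse thymocytes through 6 genes: the receptors Lgr4, Lgr5 and Lgr6, the membrane ubiquitin ligases Znrf3 and Rnf43, and the feedback regulator Axin2. They were chosen by name, with earlier results of these arrays known, as every probe set whose single gene symbol in the platform annotation was 1 of the 6. This gave 6 genes of 18193 in all, read by 11 probe sets of 34945 that carry 1 gene. The study hybridised 2 one-colour Affymetrix arrays, 1 titled TKO and 1 titled DKO, to RNA of thymocytes left after bead depletion of lineage-positive cells of C57BL/6J mice. In the series' design text TKO mice carry Lck-Cre, Cdkn2a-/-, Ring1A-/- and Ring1Bfl/fl, and DKO mice carry the same 3 alleles without Cre. By that text both share the loss of Cdkn2a and Ring1A, and Lck-Cre, a recombinase expressed in T-lineage cells, is what differs. The samples' own genotype field instead gives TKO as lacking Ring1A, Ring1B and Cdkn2a, and DKO as lacking Ring1A and Ring1B. The sources used here give no age, no sex and no number of mice behind each RNA.

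Wnt proteins bind Frizzled receptors and the co-receptors Lrp5 and Lrp6, which stops the destruction complex around Axin from degrading beta-catenin. Znrf3 and Rnf43 remove Frizzled receptors from the cell surface, and secreted R-spondins, bound to Lgr4, Lgr5 or Lgr6, take these ligases away and so strengthen the Wnt signal. Axin2, Rnf43, Znrf3 and Lgr5 are themselves Wnt target genes in epithelia, and Lgr5 is best known as a marker of intestinal crypt stem cells. In the thymus, the Wnt effectors Tcf7 and Lef1 act in early T cell development. Ring1A and Ring1B are the catalytic ubiquitin ligases of the Polycomb complex PRC1, which in mammals occupies CpG-rich promoters of silent developmental genes.

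CpG content is the sequence feature by which Polycomb-bound promoters are commonly described. So the promoters of the members Lgr4 and Lgr6, which differed, and of Axin2, the member that reports Wnt signalling most widely, are shown. Each runs from 250 bases before to 50 bases after the annotated start, was taken from RefSeq (GRCm38.p6), and is written 5′ to 3′ on the gene's strand with every CG dinucleotide in capitals. The table held a promoter for 4 of the 6 members (Lgr4, Lgr6, Rnf43 and Axin2). It held none for Znrf3 or for Lgr5, which also differed.
Lgr4, chr2:109917397-109917696, plus strand: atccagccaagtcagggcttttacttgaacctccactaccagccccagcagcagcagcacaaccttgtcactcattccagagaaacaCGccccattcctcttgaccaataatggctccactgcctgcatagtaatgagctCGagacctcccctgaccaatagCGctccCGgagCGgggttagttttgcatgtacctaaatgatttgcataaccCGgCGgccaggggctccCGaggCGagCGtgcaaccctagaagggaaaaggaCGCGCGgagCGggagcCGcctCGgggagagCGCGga
Lgr6, chr1:135105227-135105526, minus strand: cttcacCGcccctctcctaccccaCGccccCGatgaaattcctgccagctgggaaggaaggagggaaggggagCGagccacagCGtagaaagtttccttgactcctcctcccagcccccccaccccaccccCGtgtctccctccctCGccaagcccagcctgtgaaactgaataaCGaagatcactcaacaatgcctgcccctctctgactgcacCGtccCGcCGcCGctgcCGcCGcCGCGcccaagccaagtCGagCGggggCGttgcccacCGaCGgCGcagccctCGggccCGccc
Axin2, chr11:108920099-108920398, plus strand: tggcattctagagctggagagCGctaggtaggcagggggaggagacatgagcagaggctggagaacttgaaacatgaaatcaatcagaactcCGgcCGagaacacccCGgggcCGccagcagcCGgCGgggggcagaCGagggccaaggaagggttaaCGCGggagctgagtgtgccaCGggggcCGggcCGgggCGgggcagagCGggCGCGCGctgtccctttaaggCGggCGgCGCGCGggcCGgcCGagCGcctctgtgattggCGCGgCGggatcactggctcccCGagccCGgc
The Lgr4 window held 18 CG dinucleotides, and 29.7% of the 32851 mouse promoters of this length in the table held as many or more. The Lgr6 window held 24 (20.0% of promoters held as many or more) and the Axin2 window 31 (10.6%), against a median of 7 over all promoters. In the Rnf43 windows, of which there were 2, the counts were 10 and 3. The motif CTTTGA, the core of the site that Tcf and Lef proteins bind, was searched on both strands and was found in none of these windows. It occurred in 16.0% of all promoters in the table.

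With 1 array per genotype there is no spread between animals, so no test was possible and higher and lower describe these 2 arrays. A signal was taken as measured where it reached a floor, the array's median over all probe sets (71.8 on the TKO array and 68.8 on the DKO array), and lower signals were raised to the floor before the log2 ratio of TKO over DKO was formed. A gene measured on 1 array alone has a bound, written as at least. The counting rule was 2-fold, either way, and where a gene had several probe sets the brightest by mean log2 signal stood for it. As a yardstick, the 2 brightest measured probe sets of 1 gene gave log2 ratios that scattered with a robust SD of 0.21 over 4794 genes, which holds no error between RNA preparations or mice.

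The labels and the cells were checked first. All 8 genes listed as double-negative thymocyte markers were measured on both arrays, with signals of 2563.8 (Ptcra) to 13607 (Cd3g) on the TKO array and 3177 (Cd3e) to 22057 (Cd3g) on the DKO array. Of the genes listed for double-positive thymocytes, Cd4 was below the floor on both arrays. Cd8a (635 on the TKO array and 616 on the DKO array), Cd8b1 (1080 on the TKO array and 975 on the DKO array) and Cd5 (298 on the TKO array and 311 on the DKO array) were above it on both. Both lists hold genes shared by T-lineage cells of several stages, so these signals do not set the stage. Cdkn2a was at 18.5, below the floor, on the TKO array and 679 on the DKO array, at least 9.47-fold higher on the DKO array. By the design text neither genotype should have it, while the samples' own genotype field names loss of Cdkn2a for TKO alone. The Cdkn2a signal thus differed between the arrays, in the order of the samples' own field. Whether Lck-Cre also differed is not settled here. Ring1 (Ring1A) was at 147 on the TKO array and 133 on the DKO array, and Rnf2 (Ring1B) was at 4384 on the TKO array and 4149 on the DKO array. All 4 signals were above the floor, although the samples' own field has both genes lost in both genotypes, and whether these probe sets read the deleted parts of the genes is unknown here. The arrays are therefore named by their titles, the array titled TKO and the array titled DKO. Xist was at 16502 on the TKO array and 124 on the DKO array, and the Y-linked Eif2s3y was at 55.3, below the floor, on the TKO array and 1711 on the DKO array. Sex thus differed together with the title and cannot be told apart from it, although no member lies on the X or Y chromosome.

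All 3 LGR receptors had signals past 2-fold higher on the TKO array than on the DKO array, while Znrf3 and Axin2 differed by less than 2-fold and Rnf43 was below the floor on both arrays. Of the 5 measured members 3 were higher, 0 lower and 2 neither, and their log2 ratios ran from -0.42 (Axin2) to 3.69 (Lgr5), with Lgr6 taken at its bound. Over all 11280 measured genes, 3.58% were at least 2-fold higher and 0.532% at least 2-fold lower, with a median log2 ratio of -0.03. The members were chosen with this contrast known, so their share says nothing beyond the values themselves. By probe set, 6 of the 11 were measured on at least 1 array and 3 of these were higher and 0 lower, against 2.97% higher and 0.51% lower of the 20400 measured probe sets of 1 gene.

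**Figure D1:**
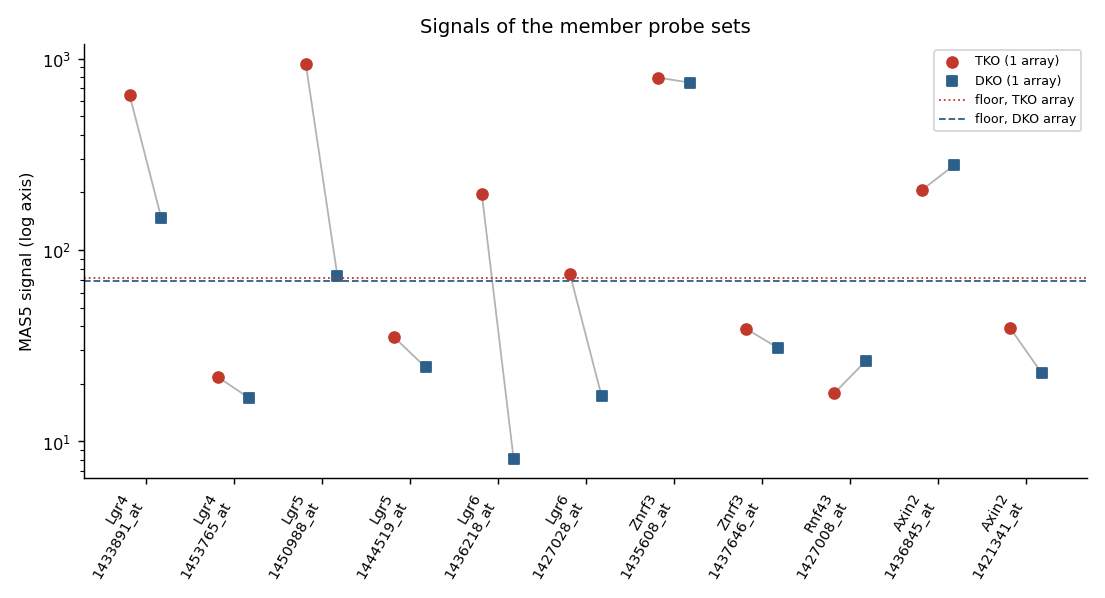
MAS5 signal (log axis) of each of the 11 member probe sets, with the TKO array as red circles, the DKO array as blue squares and each array's floor as a horizontal line. Each of Lgr4, Lgr5 and Lgr6 has 1 probe set far higher on the TKO array (Lgr4 643, Lgr5 941 and Lgr6 195) than on the DKO array, while both points of the brighter Znrf3 probe set lie close together (796 on the TKO array and 750 on the DKO array).

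Lgr5 had the largest ratio of the 4 members measured on both arrays. Its probe set 1450988_at gave a signal of 941 on the TKO array and 72.9 on the DKO array, 12.9-fold higher (log2 ratio 3.69). The DKO signal lay just above that array's floor of 68.8, so the transcript was close to unmeasured there. This ratio ranked 4 among the 10316 genes measured on both arrays, Xist included. The other Lgr5 probe set, 1444519_at, was below the floor on both arrays, at 35.2 on the TKO array and 24.4 on the DKO array, and so neither repeats the difference nor goes against it. With the floor raised to the 75th percentile of each array, Lgr5 was at least 2.26-fold higher, and as the mean over its probe sets at least 2.64-fold higher.

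Lgr4, the most widely expressed R-spondin receptor in mouse tissues, was measured on both arrays. Probe set 1433891_at gave 643 on the TKO array and 146 on the DKO array, 4.39-fold higher (log2 ratio 2.14), which ranked 42 among genes measured on both arrays. The DKO signal of Lgr4 was above that array's floor of 68.8 and further from it than that of Lgr5. Its other probe set, 1453765_at, was unmeasured, at 21.7 on the TKO array and 16.8 on the DKO array. Lgr4 was not counted as higher under 2 alternatives, where it had a bound only. The bound was 1.54-fold or more at the 75th-percentile floor and 1.72-fold or more as the mean over probe sets. Neither bound limits Lgr4 to under 2-fold.

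Lgr6, a marker of stem cells in hair follicles, was measured on the TKO array alone. Probe set 1436218_at gave 195 on the TKO array and 8.14, below the floor, on the DKO array, at least 2.83-fold higher (log2 bound 1.50). This bound ranked 37 among the 523 genes measured on the TKO array alone. All of these genes have the floor as their DKO value, so the rank orders TKO signals and not the sizes of differences. Its other probe set, 1427028_at, was in the same order, 75.1 on the TKO array, just over the floor of 71.8, and 17.2, below the floor, on the DKO array, which bounds the ratio at 1.09-fold or more only. As the mean over both probe sets the bound was 1.76-fold, and at the 75th-percentile floor Lgr6 was below the floor on both arrays and had no ratio.

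Of the ligases, Znrf3 differed by less than 2-fold and Rnf43 could not be compared. Znrf3, by probe set 1435608_at, was at 796 on the TKO array and 750 on the DKO array (log2 ratio 0.09), which is within the scatter between probe sets of 1 gene. Its other probe set, 1437646_at, was below the floor at 38.8 on the TKO array and 30.9 on the DKO array. Rnf43 has 1 probe set here, 1427008_at, at 17.8 on the TKO array and 26.3 on the DKO array, below the floor on both, so no ratio was formed.

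Axin2, the destruction-complex scaffold whose transcription follows beta-catenin signalling in many tissues, was at 206 on the TKO array and 277 on the DKO array by probe set 1436845_at (log2 ratio -0.42). The difference is under 2-fold, and on this probe set the DKO signal was the higher one. Its other probe set, 1421341_at, was below the floor on both arrays, at 39.1 on the TKO array and 22.7 on the DKO array. The mean over both probe sets, taken before the floor was applied, turned the sign, to a log2 ratio of 0.18. That turn came from the signals of 1421341_at, which lie below the floor, so the direction for Axin2 was not settled.

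**Figure D2:**
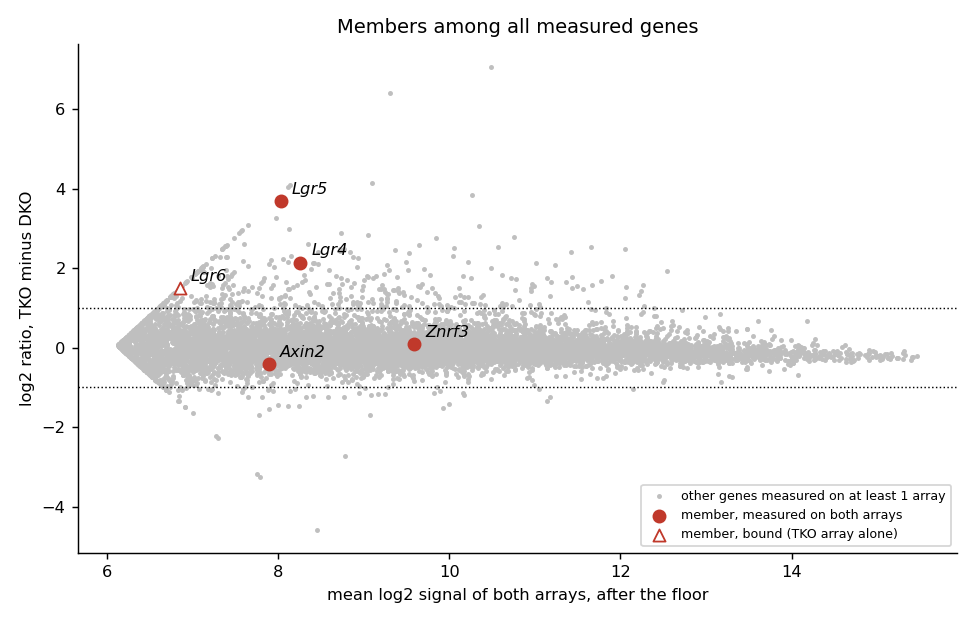
Log2 ratio of TKO minus DKO against the mean log2 signal of both arrays after the floor, with 1 grey point for each gene measured on at least 1 array and dotted lines at 2-fold. Lgr5 (3.69) and Lgr4 (2.14) lie above the main cloud and Lgr6 lies on its lower-signal edge as a bound of 1.50 or more, while Znrf3 (0.09) and Axin2 (-0.42) lie within it.

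The lists of Wnt pathway genes by role held 98 genes with a probe set besides the members, of which 58 were measured. Of these 58, 2 were at least 2-fold higher (3.45%) and 2 at least 2-fold lower (3.45%), and 54 passed in neither direction, beside 3.58% higher and 0.532% lower over all measured genes. Their median log2 ratio was -0.004, and that of all measured genes was -0.03. The 2 higher genes were Tnfrsf19 and Wnt10a, and the 2 lower ones were Wnt8b and Fzd3. At the 75th-percentile floor Wnt10a, Wnt8b and Fzd3 were below the floor on both arrays and had no ratio, and the same held for Wnt8b and Fzd3 as the mean over probe sets. The counts were 3 higher and 1 lower with the median log2 ratio set to 0, where Btrc joined the higher genes, and 3 higher and 0 lower as the mean over probe sets, where the secreted Dickkopf family member Dkk3 did (log2 ratio 1.25).

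Among the ligands of the LGR receptors, no R-spondin was measured on the TKO array. Rspo1 was at 32.9 on the TKO array and 15.9 on the DKO array, and Rspo4 at 3.03 on the TKO array and 3.21 on the DKO array, all below the floor. Both Rspo3 probe sets were also below the floor, at no more than 18.4 on either array. Rspo2 was measured on the DKO array alone, by 1 of 2 probe sets, at 13.8 on the TKO array and 85.3 on the DKO array, which bounds it at 1.19-fold lower or more. With the 25th-percentile floors (21.3 on the TKO array) this Rspo2 probe set was past 2-fold lower, again as a bound. Of the other leucine-rich repeat receptors of the same superfamily, the thyrotropin receptor Tshr, the follicle-stimulating hormone receptor Fshr and the relaxin-family receptors Rxfp1 and Rxfp2 were all below the floor on both arrays.

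Of 19 Wnt ligands 7 were measured, with 1 higher, 1 lower and 5 neither. Wnt10a was at 274 on the TKO array and 61.4, below the floor, on the DKO array, at least 3.99-fold higher. Wnt8b was at 134 on the TKO array and 276 on the DKO array, 2.05-fold lower, and neither of the other two Wnt8b probe sets reached the floor. Wnt5b, a ligand known for signalling without beta-catenin, was at 300.1 on the TKO array and 437 on the DKO array (log2 ratio -0.54). Wls, the carrier that brings Wnt proteins to the cell surface, was at 1080 on the TKO array and 1013 on the DKO array (log2 ratio 0.09).

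Of 15 Wnt receptors and co-receptors 9 were measured, with 0 higher, 1 lower and 8 neither. Fzd3, a Frizzled receptor, was at 138 on the TKO array and 277 on the DKO array, 2.002-fold lower and so at the limit of the rule. It was under 2-fold when the median log2 ratio of all genes was set to 0. The co-receptor Lrp6 was at 691 on the TKO array and 809 on the DKO array (log2 ratio -0.23), while a dimmer probe set of it had the opposite sign at 0.26. Fzd5 was at 509.7 on the TKO array and 560.2 on the DKO array (log2 ratio -0.14). Of the 8 measured inhibitors 0 were 2-fold higher or lower, among them the Dickkopf receptor Kremen1 (803 on the TKO array and 855 on the DKO array) and the membrane protein Apcdd1 (479 on the TKO array and 442 on the DKO array).

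Inside the cell no gene of the pathway's machinery was counted as higher or lower at the median floor. None of the 6 measured Dishevelled genes and regulators, of the 10 destruction complex genes besides Axin2, or of the 11 nuclear effector genes passed 2-fold, and the list medians were 0.01, -0.004 and -0.06, over members that lay on both sides of 0. Btrc, the subunit that brings beta-catenin to its ubiquitin ligase, came closest, at 288 on the TKO array and 146 on the DKO array (log2 ratio 0.98). It passed 2-fold (1.02) when the median log2 ratio of all genes was set to 0, while its second probe set measured on both arrays was at -0.002. Among the others, the Dishevelled antagonist Dact3 was at 66.1, below the floor, on the TKO array and 117 on the DKO array (log2 bound -0.70). Such a bound does not limit a gene to under 2-fold. Apc2 was at 17.5, below the floor, on the TKO array and 76.6 on the DKO array. Tle2 was below the floor on both, at 65.2 on the TKO array and 8.71 on the DKO array. With 25th-percentile floors (21.3 on the TKO array and 20.1 on the DKO array), Apc2 was past 2-fold lower and Tle2 past 2-fold higher. The Tcf family member Tcf7l2 was at 388 on the TKO array and 260.2 on the DKO array (log2 ratio 0.58), and the beta-catenin cofactor Bcl9 at 118 on the TKO array and 176 on the DKO array (log2 ratio -0.57). Dvl1, a Dishevelled adaptor, was at 1790 on the TKO array and 1908 on the DKO array (log2 ratio -0.09), and Dvl2 was at 318 on the TKO array and 295 on the DKO array. The kinase Csnk1a1 was at 8491 on the TKO array and 8336 on the DKO array (log2 ratio 0.03), and the tankyrase Tnks2, which marks Axin for degradation, was at 5564 on the TKO array and 5525 on the DKO array. Ctnnb1, which encodes beta-catenin, was at 12989 on the TKO array and 13706 on the DKO array (log2 ratio -0.08). Lef1 was at 7059 on the TKO array and 8396 on the DKO array (log2 ratio -0.25). Tcf7 was not analysed here.

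Among common Wnt target genes besides the members, 1 of the 8 measured was 2-fold higher and none was 2-fold lower. The median log2 ratio of the 8 was 0.23. Tnfrsf19 (TROY), a receptor of the tumour necrosis factor family that marks Lgr5-positive intestinal stem cells in mice, was at 1682 on the TKO array and 323 on the DKO array, 5.21-fold higher. A second measured Tnfrsf19 probe set was 2.38-fold higher, at 166 on the TKO array and 69.8 on the DKO array, and the third was below the floor on both. As the mean over its probe sets Tnfrsf19 was 2.28-fold higher. The target Myc was at 5595 on the TKO array and 6953 on the DKO array (log2 ratio -0.31), and the cyclin gene Ccnd1 was at 807 on the TKO array and 633 on the DKO array (log2 ratio 0.35). The adhesion receptor Cd44 was at 2030.2 on the TKO array and 1060.6 on the DKO array (log2 ratio 0.94). Of the target list's other members, Olfm4, Smoc2, Ascl2, Sox9, Sp5 and Notum, of which the first 3 are known from intestinal stem cells, were below the floor on both arrays.

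**Figure D3:**
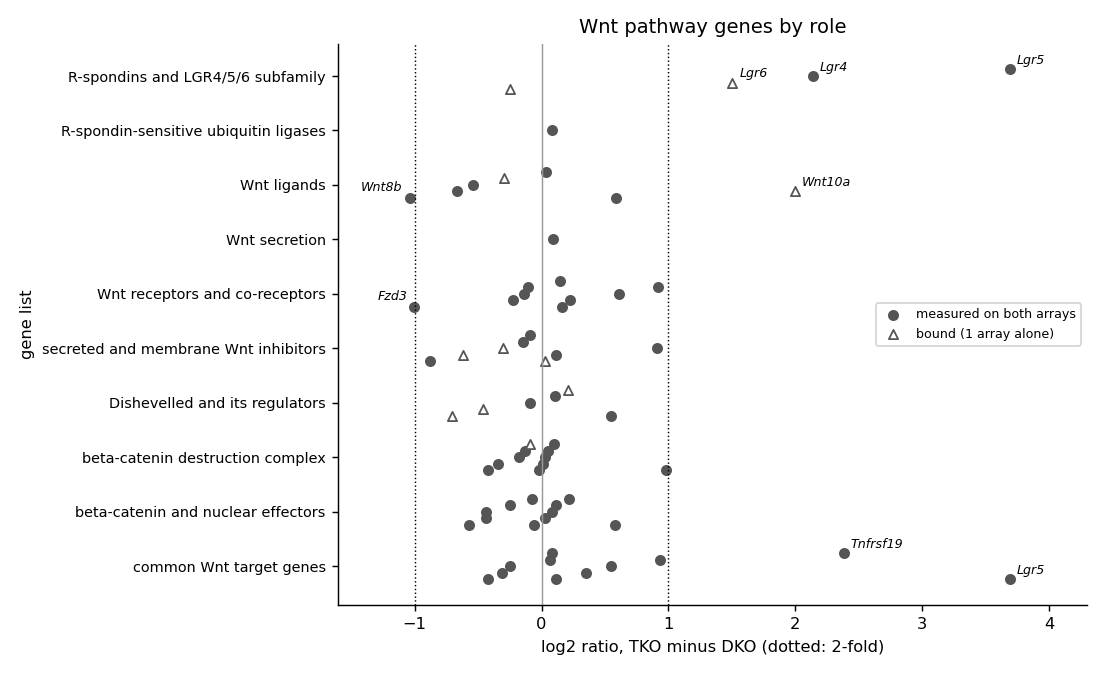
Log2 ratio of TKO minus DKO for every measured gene of the lists, members included, with 1 row per role, filled circles for genes measured on both arrays, hollow triangles for bounds and dotted lines at 2-fold. The 3 LGR receptors, Wnt10a and Tnfrsf19 lie to the right of the 2-fold line, Wnt8b and Fzd3 to the left, and the destruction complex and nuclear effectors lie between the lines, with Btrc (0.98) next to the right one.

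The genes whose pair of signals was most like that of each member were found by the distance between their floored log2 signals over these 2 arrays. For Lgr5 these were Pou3f3, Tjp1, Klhl32, Insm1 and Fstl1, at distances of 0.27 to 0.83. Pou3f3, a neural transcription factor gene, was at 1126 on the TKO array and 5.86 on the DKO array, at least 16.4-fold higher, and the tight-junction scaffold gene Tjp1 was at 778 on the TKO array and 81.2 on the DKO array, 9.59-fold higher. For Lgr4 they were Egfl6, Ehd2, Vegfc, Dok3 and Nrgn (distances 0.19 to 0.22), with signals of 584 to 710.3 on the TKO array and 128 to 168 on the DKO array. For Lgr6 they were Ciita, the class II histocompatibility transactivator, and Tmem106a, Tiam2, Pnmt and Zfp532, at distances of up to 0.06, with signals of 187 to 202 on the TKO array. Their DKO signals ran from 30.4 (Pnmt) to 70.4 (Tiam2), against 8.14 for Lgr6, so the likeness on the DKO array was set by the floor. The same holds for Pou3f3, Insm1 and Fstl1, which were below the floor on the DKO array. The 5 for Znrf3 were Heatr3, Stradb, Slc15a4, Ctdnep1 and Fuca2 (distances up to 0.02), and those for Axin2 were Zfp775, Tmem151b, Nle1, Zfp90 and Ankrd39 (up to 0.05). With 2 arrays such likeness is a description of 2 signals only.

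Markers of other cell types differed between the arrays together with the LGR receptors. All 8 B lineage markers with a probe set were measured and all passed 2-fold with the TKO array higher, with a summed signal of 28630 on the TKO array and 8267 on the DKO array. Of 4 measured macrophage and monocyte markers 3 were higher, with a sum over the list of 5409.5 on the TKO array and 1342 on the DKO array, and Cd14 was below the floor on both. The 8 double-negative thymocyte markers summed to 64223 on the TKO array and 93029 on the DKO array, with 1 of them, Il2ra, 2-fold lower. Of the 6 neutrophil markers 2 were lower, and the sum was 1560 on the TKO array and 3033 on the DKO array. The part of these cells in the LGR signals was not tested, and in bulk RNA fewer cells of a type and less RNA per cell cannot be told apart.

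Of 14 markers of thymic epithelium, fibroblasts and endothelium, 8 were below the floor on both arrays and none was counted as 2-fold higher or lower. Of 7 thymic epithelium markers 4 were measured and 0 were higher, with a sum of 1123 on the TKO array and 1230 on the DKO array. Epcam made up most of it, at 688 on the TKO array and 822 on the DKO array. Dimmer were Krt8 (134 on the TKO array and 100 on the DKO array), Krt5 (107 and 86.2) and Cldn4 (108 and 129). The defining genes Foxn1, Psmb11 and Aire were below the floor on both. Of 7 fibroblast and endothelium markers 2 were measured and 0 were higher, with a sum of 607 on the TKO array and 414 on the DKO array. Pecam1 was at 323 on the TKO array and 251 on the DKO array, and Col1a1, Col1a2, Pdgfra, Cdh5 and Kdr were below the floor on both. Dcn, measured on the TKO array alone (88.6 on the TKO array and 52.2 on the DKO array), has a bound of 1.29-fold or more, which does not limit it to under 2-fold. Of 5 dendritic cell markers 2 were measured and 0 were higher (sum 547 on the TKO array and 423 on the DKO array), with Flt3, Siglech and Xcr1 below the floor on both. The 4 innate lymphoid and natural killer markers with a probe set were measured, and 0 passed 2-fold (sum 8531 on the TKO array and 5715 on the DKO array). Of the double-positive thymocyte markers, 3 of 4 with a probe set were measured and 0 passed 2-fold (sum 2024 on the TKO array and 1921 on the DKO array). Both erythroid markers with a probe set, Hba-a1 and Klf1, were below the floor on both arrays (sum 33.1 on the TKO array and 24.2 on the DKO array).

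**Figure D4:**
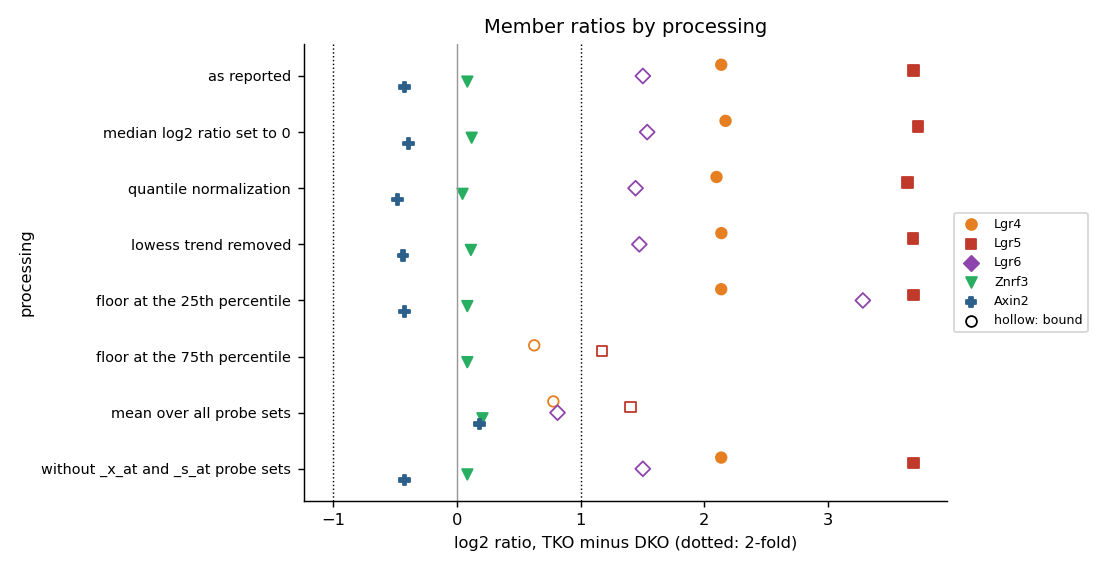
Log2 ratio of TKO minus DKO for the 5 measured members under each way of processing, with filled symbols for genes measured on both arrays, hollow symbols for bounds and dotted lines at 2-fold. Lgr5 stays to the right of the 2-fold line in every row, from 1.17 to 3.72, while Lgr4 and Lgr6 fall to the left of it as the mean over probe sets, at 0.78 and 0.81, and Axin2 changes sign there. Lgr6 and Axin2, below the 75th-percentile floor on both arrays, have no point there.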

How the data were processed

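Gene expression was measured on 2 one-colour Affymetrix arrays, 1 per title, from 6 ug of total RNA each, per the labels' protocols, which also place the thymocytes in standard medium. The authors deposited linear intensity values, 1 per probe set, and per the submitters' processing notes the tool was MAS5 (no version is named). MAS5 removes a local background signal and then applies 1 scaling factor per array, and its detection calls were not used here. After trimming 2% from each end, the mean signal was 497 on both arrays. Scan dates were not used here, and batch and title cannot be told apart. The number of arrays limits the precision.

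Of 45037 probe sets, 34945 carried 1 gene, 932 several (not used for named genes) and 9160 were not listed in the platform annotation. Symbols were updated by Entrez ID through a RefSeq table of GRCm38.p6 (99.4% matched). Floor, 2-fold rule and probe set choice are given above, and MAS5 signals of different probe sets were set side by side only to find the nearest patterns, where a likeness also depends on how each probe set hybridises. Summed marker signals serve to compare the arrays only. The procedure was tested on simulated data, with changes planted only well above the floor and the same floor for both arrays. The planted genes had higher DKO signals than the LGR receptors, so that test does not cover calls near or below the floor. Calculations used numpy 2.4.6, scipy 1.17.1, pandas 2.3.3 and statsmodels 0.14.6 under Python 3.11.15, and plots matplotlib 3.10.9.

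The members, lists and alternatives were chosen with earlier results of these data known. Genes named were all members, list genes past 2-fold, the 2 brightest measured genes of each list, the R-spondins, Lef1, Ctnnb1, Myc and Ccnd1, the markers, and the 5 nearest patterns without provisional names. Cd44, Btrc, Dact3, Apc2, Tle2, Tcf7l2, Bcl9, Dkk3, Wnt9a and Wnt9b were named outside this rule, after their values were seen. So were the targets below the floor, the hormone receptors and the label-check genes. The results were recomputed with floors at the 25th and the 75th percentile, with quantile normalization, with the median log2 ratio set to 0, after a lowess fit (span 0.3) was subtracted, with the mean over probe sets, with no _x_at or _s_at probe sets, and, for counts over lists and all genes, with no X or Y genes.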

Additional observations from a re-analysis of the deposited data

How the results depend on the processing

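No paired analysis was possible because each title has 1 array, and for the same reason no array could be left out. With the floor at the 75th percentile, Lgr4 had a log2 bound of 0.63 and Lgr5 of 1.17, 1 member was 2-fold higher, the pathway lists without the members had 1 higher and 0 lower, and all genes had 147 higher and 14 lower. With the floor at the 25th percentile, Lgr6 had a log2 bound of 3.28, the pathway lists had 5 higher and 4 lower, and all genes had 962 higher and 434 lower, a split of 68.9% higher among the genes past 2-fold, against 87.1% as reported (404 higher and 60 lower). As the mean over probe sets, Lgr4 was at a bound of 0.78, Lgr5 at 1.40, Lgr6 at 0.81 and Axin2 at 0.18, 1 member was higher, and the lists had 3 higher and 0 lower. With the median set to 0 the lists had 3 higher and 1 lower, against 2 and 2 as reported. A higher floor raises the DKO value of a dim gene, and a mean takes in probe sets below the floor. Under the scaling alternatives and without _x_at and _s_at probe sets, the log2 ratios of the 5 measured members moved by less than 0.21, the scatter between probe sets, and Znrf3 ran from 0.05 to 0.21 over all settings. Depth is not known for arrays, and signals near or below the floor limit Lgr5 (on the DKO array), Lgr6, the R-spondins and Rnf43.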
